A study of Drosophila melanogaster with 8 samples.

Results

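The genes described here encode the enzymes that turn tyrosine into dopamine and then into the pigments and cross-linkers of insect cuticle: ple, Ddc, e, b, t, AANAT1, Pu and amd. They were chosen by name, and 7 of the 8 were matched by FlyBase symbol to the 16845 genes of the count table. No row was matched to AANAT1 (now speck), which acetylates dopamine, and it was not analysed here. RNA had been sequenced from the terminalia (genital and anal structures) of male pupae of Drosophila melanogaster of the genotype yw;+;+, which all samples share, kept at 25˚C until 24 hr or 28 hr after puparium formation (APF). There were 4 libraries at 24 hr APF and 4 at 28 hr APF, each made from a different single-pupa sample, so p-values measure the spread between these samples, and a library held between 24534188 and 35795240 counted reads. The one comparison is between these ages, in a background that carries mutations of y (needed for black melanin) and w (needed for eye pigment) whose alleles are not named.

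In this pathway, tyrosine hydroxylase (ple, pale) converts tyrosine to dopa, with tetrahydrobiopterin as its cofactor, and GTP cyclohydrolase I (Pu, Punch) catalyses the committed step of tetrahydrobiopterin synthesis. Dopa decarboxylase (Ddc) makes dopamine. Dopamine can be oxidized to dark melanin, or it can be joined to beta-alanine by e (ebony) to give N-beta-alanyl dopamine, the precursor of tan, sclerotized cuticle. The product of b (black) makes beta-alanine from aspartate, and t (tan) splits N-beta-alanyl dopamine back into its parts. The enzyme encoded by amd is a relative of Ddc that acts on dopa and is needed for normal cuticle. Some of these genes also work in dopaminergic neurons, glia or the eye, so their transcripts are not confined to epidermis.

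The 8 marker genes of terminalia epithelium (grh, Abd-B, cad, Poxn, dsx, en, hh and Dll) were all detected, with means at either time point between 13.8 rpkm (Dll) and 113.4 rpkm (cad). Here rpkm is a read count scaled to the unioned exon length of the gene and to the total count of the library. Of these 8 markers, 5 were higher and 0 lower at 28 hr APF by the edgeR test described below. Over all tested genes, 15.6% were higher and 17.3% lower. The 5 (grh, Abd-B, cad, Poxn and dsx) had log2 fold changes between 0.18 and 0.33. The summed level of the 8 was between 2382 and 2561 CPM (the count scaled to the library total alone) at 24 hr APF and between 2681 and 2944 CPM at 28 hr APF. Because whole terminalia were sequenced, more RNA per cell and more cells of a type cannot be told apart for any gene below.

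Transcripts of Pu and e rose strongly between 24 hr and 28 hr APF, and those of Ddc rose by less. Expression of e increased 8.23-fold (95% interval 6.61 to 10.2), that of Pu 4.29-fold (3.09 to 5.96) and that of Ddc 1.82-fold (1.31 to 2.53), with 4 libraries at each time point. The remaining genes, ple, amd, b and t, were not past the threshold. Of the 7 genes, 3 therefore differed by the quasi-likelihood test of edgeR with Benjamini-Hochberg adjustment over all genes (threshold 0.05), all of them higher at 28 hr APF. Over all 11232 genes tested, 32.9% differed. The share that was higher at the later time was 15.6% and the share that was lower 17.3%, and the median log2 fold change was 0.0037.

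**Figure D1:**
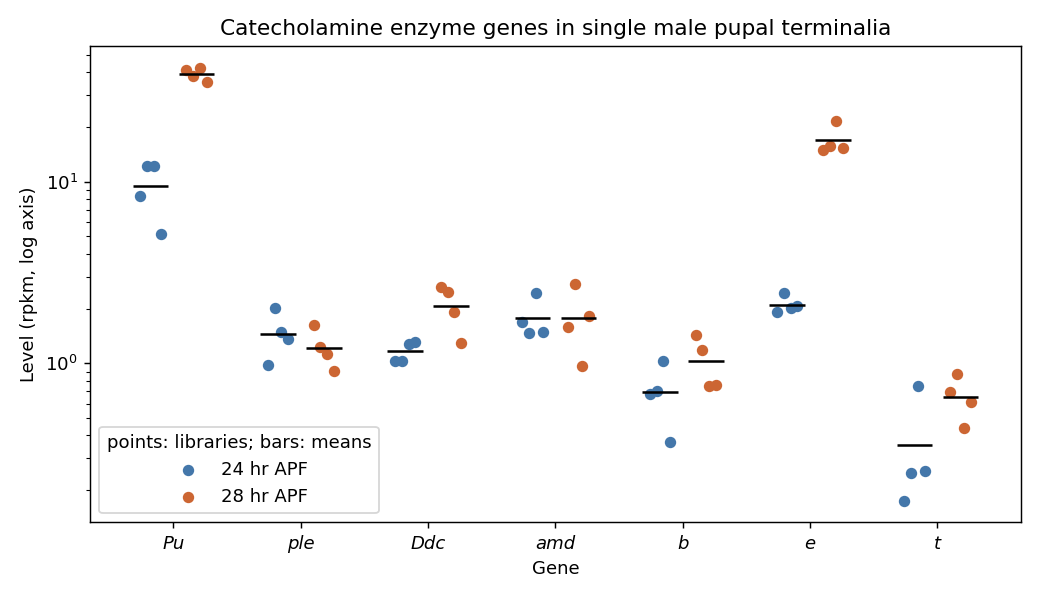
Level of each of the 7 genes in rpkm (log axis) at 24 hr APF (blue) and 28 hr APF (orange). Points are single libraries and bars are the means of 4 libraries. All libraries at 28 hr APF lay above all libraries at 24 hr APF for Pu and e, whereas the time points overlapped for the other 5 genes.

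The cofactor enzyme gene Pu (FBgn0003162) was the most abundant of the 7 at both time points. It lies on chromosome arm 2R of BDGP6, on the plus strand, from 21175315 to 21182608, and has 3 annotated transcripts. At 24 hr APF it had 8.36, 12.1, 12.2 and 5.17 rpkm in replicates 1 to 4, a mean of 9.47 ± 3.39 rpkm (SD, n = 4). At 28 hr APF it had 41.2, 38.3, 42.4 and 35.2 rpkm, a mean of 39.3 ± 3.23 rpkm (SD, n = 4). Every library at 28 hr APF was thus above every library at 24 hr APF, and the lowest value of all was that of replicate 4 at 24 hr APF. This was a log2 fold change of 2.10 (standard error 0.21, edgeR adjusted p = 5.15e-05). With that increase Pu ranked 67 among the 11232 tested genes, and its mean level moved from percentile 60.5 to percentile 85.6 of the 16431 genes with a length.

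The spread of Pu between libraries was wider at 24 hr APF than at 28 hr APF, a difference that was not tested. At 24 hr APF the coefficient of variation over the 4 pupae was 35.8%, where counting alone would give 4.14%, and at 28 hr APF it was 8.22%, where counting would give 1.96%. The earlier terminalia therefore differed from each other by up to 2.36-fold and the later ones by up to 1.20-fold, on counts of at least 398 reads.

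Within the span of Pu the annotation places CG4286 on the opposite strand and tRNA:Trp-CCA-2-5 on the same strand, both in introns and with no exon base shared with Pu. The tRNA gene, which is 72 bases long, had between 16 and 23 reads at 24 hr APF and between 71 and 95 at 28 hr APF, and was among the 3 genes whose pattern was most like that of Pu. Its mean level was 9.99 rpkm at 24 hr APF and 38.5 rpkm at 28 hr APF. These levels cannot be set against those of Pu, because a gene of 72 bases is little longer than a read. Whether the reads counted for the tRNA gene came from the tRNA or from transcripts of Pu was not tested. CG4286, inside the long intron of the transcript that starts farthest upstream, held between 0 and 3 reads at 24 hr APF and between 7 and 12 at 28 hr APF. Counts over unioned exons do not separate the 3 transcripts of Pu, so the rise cannot be given to any of them.

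The gene e (FBgn0000527), which encodes N-beta-alanyl dopamine synthase, showed the largest change of the 7. It lies on arm 3R of BDGP6, on the minus strand, from 21229839 to 21237177, and shares no exon base with another gene. At 24 hr APF it had 1.90, 2.43, 2.01 and 2.07 rpkm in replicates 1 to 4, a mean of 2.10 ± 0.226 rpkm (SD, n = 4). At 28 hr APF it had 15.0, 15.6, 21.5 and 15.3 rpkm, a mean of 16.9 ± 3.12 rpkm (SD, n = 4). The time points did not overlap, and replicate 3 at 28 hr APF stood above the other 3 libraries of its group. The log2 fold change was 3.04 (standard error 0.14, edgeR adjusted p = 7.51e-07), which ranked 21 by size of increase and 10 by p-value among the 11232 tested genes. Without replicate 3 at 28 hr APF it was 2.88. The reads behind these levels numbered between 175 and 233 in a library at 24 hr APF and between 1396 and 2029 at 28 hr APF.

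Both e and Pu were also past the threshold when tested against a fold change of 1.5 rather than against no change, which 2.37% of all tested genes passed as higher at 28 hr APF. They were the members whose 4 libraries at 28 hr APF all lay above the 4 at 24 hr APF, a pattern that 15.7% of all tested genes showed.

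Among the core enzymes of dopamine synthesis, Ddc (FBgn0000422) was the only gene past the threshold. It lies on arm 2L of BDGP6, on the minus strand, from 19116483 to 19120306. At 24 hr APF it had 1.02, 1.03, 1.28 and 1.31 rpkm in replicates 1 to 4, a mean of 1.16 ± 0.153 rpkm (SD, n = 4). At 28 hr APF it had 2.63, 2.46, 1.92 and 1.30 rpkm, a mean of 2.08 ± 0.600 rpkm (SD, n = 4). Replicates 1, 2 and 3 at 28 hr APF lay above all libraries at 24 hr APF, while replicate 4 lay within their range. On the log2 scale Ddc rose by 0.86 (standard error 0.21, edgeR adjusted p = 0.0106). It did not pass when tested against a fold change of 1.5 (edgeR adjusted p = 0.440). In the later annotation, 88 exon bases of Ddc (3.15% of its exon length) are shared with CG10561 on the opposite strand, which had between 221 and 302 reads in a library against between 71 and 231 for Ddc. Whether strand was used in counting is not stated in the sources used here, and reads on these bases were not separated.

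Tyrosine hydroxylase, encoded by ple (FBgn0005626; arm 3L of BDGP6, minus strand, from 6713356 to 6719525), stayed at a low level. It had 0.976, 2.003, 1.48 and 1.37 rpkm in replicates 1 to 4 at 24 hr APF and 1.61, 1.23, 1.13 and 0.909 rpkm at 28 hr APF. The time points overlapped over most of their range. The log2 fold change was -0.22, with a 95% interval from -0.72 to 0.28 (edgeR adjusted p = 0.504). As a fold change the interval ran from 0.607 to 1.22, so it left out a 2-fold change in either direction but not every smaller one.

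The Ddc relative amd (FBgn0000075; arm 2L of BDGP6, plus strand, from 19110154 to 19114110) lies 2372 bases from Ddc with no annotated gene between them. It had 1.68, 1.47, 2.44 and 1.48 rpkm in replicates 1 to 4 at 24 hr APF and 1.57, 2.72, 0.959 and 1.82 rpkm at 28 hr APF. The 28 hr APF libraries spread on both sides of the earlier ones. The log2 fold change was 0.03 (95% interval -0.59 to 0.65, edgeR adjusted p = 0.950), and its sign was not stable: it was between -0.25 and 0.22 in the 8 fits that each omitted 1 library.

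The beta-alanine enzyme gene b (FBgn0000153; arm 2L of BDGP6, plus strand, from 13821248 to 13823979) had 0.678, 0.706, 1.03 and 0.366 rpkm in replicates 1 to 4 at 24 hr APF. At 28 hr APF it had 1.43, 1.18, 0.749 and 0.761 rpkm. Replicates 1 and 2 at 28 hr APF were above all earlier libraries and the others were not. For b the log2 fold change was 0.61 (95% interval -0.10 to 1.32, edgeR adjusted p = 0.178), on between 28 and 96 reads in a library.

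The hydrolase gene t (FBgn0086367; X chromosome of BDGP6, minus strand, from 9217655 to 9223257) was the least abundant of the 7, with between 11 and 49 reads in a library. It had 0.175, 0.248, 0.750 and 0.255 rpkm in replicates 1 to 4 at 24 hr APF, and 0.693, 0.872, 0.439 and 0.614 rpkm at 28 hr APF. Replicate 3 at 24 hr APF lay within the later range, and the other 3 earlier libraries lay below it. For t the log2 fold change was 0.91 (95% interval -0.04 to 1.87, edgeR adjusted p = 0.132). This call depended on 1 library: without replicate 3 at 24 hr APF, the log2 fold change was 1.54 and the adjusted p from edgeR was 0.00684.

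**Figure D2:**
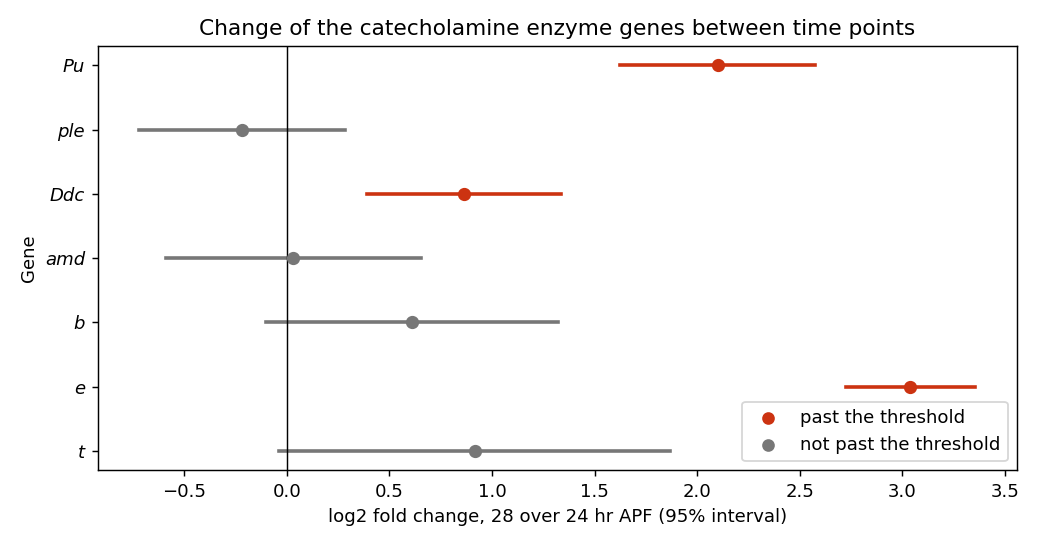
log2 fold change of each gene between 24 hr and 28 hr APF (x axis) with its 95% interval from the quasi-likelihood fit over 4 libraries at each time point; red marks genes past the threshold and grey the others. The intervals of e, Pu and Ddc lay above 0, while those of ple, amd, b and t included it.

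The order of the levels, compared per length, was Pu, e, amd, ple, Ddc, b and t at 24 hr APF and Pu, e, Ddc, amd, ple, b and t at 28 hr APF. At 24 hr APF, Pu was 4.50 times the level of e with no overlap between their ranges, whereas each of the following neighbours in the order overlapped. At 28 hr APF, Pu was 2.33 times the level of e and e was 8.11 times that of Ddc, neither pair overlapping. The ranges of Ddc and amd, amd and ple, ple and b, and b and t overlapped at that time. Apart from Pu, all of these genes were below the median gene in level at 24 hr APF, and at 28 hr APF only e joined Pu above it, at percentile 70.2.

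Summed over the 7 genes, the level rose from 17.0 ± 4.34 rpkm to 62.9 ± 5.48 rpkm (SD, n = 4 each). The share of this sum held by Pu was between 43.0% and 60.6% at 24 hr APF and between 61.3% and 64.2% at 28 hr APF. That of e was between 9.49% and 17.2% and then between 23.4% and 31.1%. The other 5 genes together had 5.44 ± 1.10 rpkm at 24 hr APF and 6.75 ± 1.69 rpkm at 28 hr APF (SD, n = 4 each), so most of the increase of the sum lay in 2 genes.

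Ratios between enzymes of the same library do not depend on how libraries are scaled to each other. For 4 ratios, the difference between the time points was tested by an exact two-sided permutation test over the 8 libraries, in which 4 against 4 libraries cannot give a p-value below 0.0286. The length-scaled ratio of Pu to ple was between 3.78 and 8.57 at 24 hr APF and between 25.6 and 38.7 at 28 hr APF. Its geometric mean rose 5.17-fold (exact permutation p = 0.0286, adjusted over 4 ratios p = 0.0381). The ratio of Ddc to ple was between 0.517 and 1.05 and then between 1.43 and 2.01, a 2.05-fold rise with the same p-values. The forward enzyme e exceeded the reverse enzyme t in every library, by between 2.68 and 10.9 times at 24 hr APF and between 17.9 and 49.1 times at 28 hr APF, a 3.78-fold rise with the same p-values. The ratio of Ddc to its neighbour amd was between 0.525 and 0.883 and then between 0.714 and 2.0003, and this 1.82-fold difference did not pass (exact permutation p = 0.0571, adjusted p = 0.0571).

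**Figure D3:**
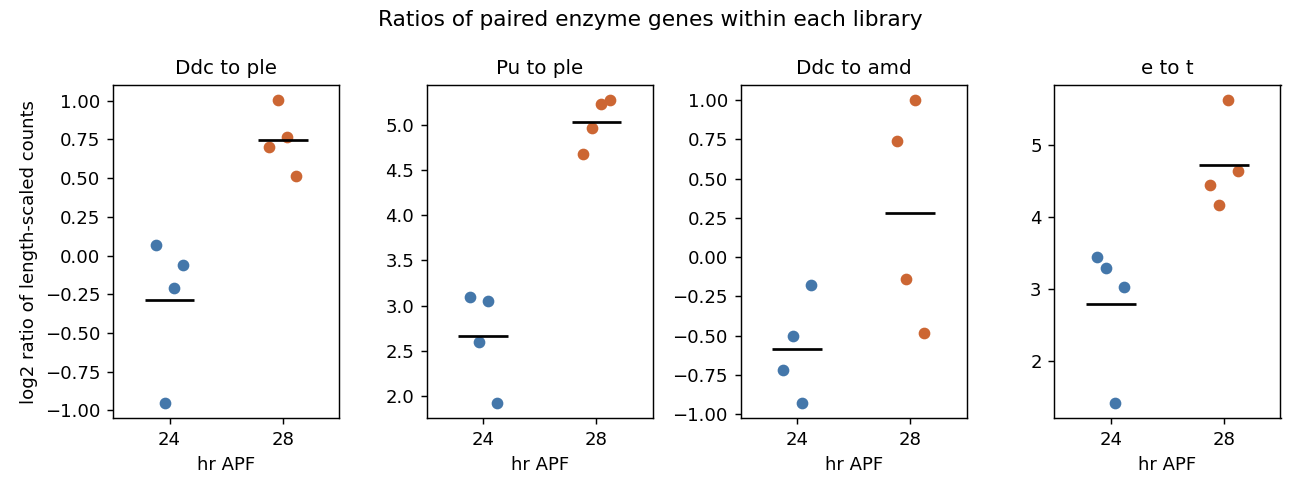
log2 of the ratio of 2 genes' length-scaled counts within a library (y axis) at 24 hr APF (blue) and 28 hr APF (orange); points are libraries and bars are means of 4. The time points were separate for Ddc to ple, Pu to ple and e to t, and overlapped for Ddc to amd.

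Of the genes that flank e and Pu, looked at after the values were seen, 3 were tested (Nelf-A, Xpd and tud). Nelf-A, 326 bases from e, had 25.6 ± 0.837 rpkm at 24 hr APF and 24.3 ± 1.70 rpkm at 28 hr APF (n = 4 per time, SD), which is -0.05 on the log2 scale, and the gene on the other side of e, CG5892, averaged 0.00775 rpkm at 24 hr APF, had no read at 28 hr APF and was not tested. Xpd, 810 bases before Pu, had a log2 fold change of -0.22, and tud, 713 bases after it, of 0.28, both past the threshold (edgeR adjusted p = 0.0178 and 0.000838).

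The genes most like each enzyme in pattern were found as those with the smallest root mean square difference of log2 CPM over the 8 libraries, after centring each gene on its mean. For e these were CG4382 (difference 0.20), CG9698 (0.27) and Cpr73D (0.31), a gene of the CPR family of cuticle proteins, and 23 genes outside the members lay within 0.5. For Pu they were dsb (0.11), yellow-e3 (0.14) and the nested tRNA gene (0.17), with 107 genes within 0.5. For Ddc they were edl (0.19), laf (0.20) and lncRNA:CR45522 (0.21), with 3684 genes within 0.5. Of the rest, the closest gene was Ir7g for ple (0.11), sa for amd (0.16), Tsp42Ep for b (0.10) and CG1909 for t (0.25). For ple, amd and b, between 2184 and 8654 genes lay within 0.5.

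Of 62 listed symbols for neighbours of the pathway, 57 genes were matched to the counts and 43 were tested. Of these, 13 were higher and 8 lower at 28 hr APF, which is 48.8% of those tested against 32.9% of all genes, with a median log2 fold change of 0.08 against 0.0037. The lists were chosen with earlier results of these data known, and the difference between the shares was not tested.

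Among 5 tested genes of tetrahydrobiopterin and aromatic amino acid supply, 1 was past the threshold, where 32.9% of all tested genes were. This was Pcd, which encodes the dehydratase that recycles the cofactor. It went from 64.0 ± 3.21 to 81.9 ± 6.87 rpkm (n = 4 per time, SD), a log2 fold change of 0.39. The enzymes after Pu in cofactor synthesis, pr (6-pyruvoyl tetrahydropterin synthase) and Sptr (sepiapterin reductase), had log2 fold changes of -0.03 and 0.05. Dhpr (dihydropteridine reductase) had 0.01, and Catsup, a negative regulator of tyrosine hydroxylase and the most abundant of the list, had 115.4 ± 3.92 rpkm at 28 hr APF and a log2 fold change of 0.09. At 28 hr APF pr stood at 70.3 ± 1.79 rpkm and at 24 hr APF at 73.5 ± 1.60 rpkm (SD, n = 4), above Pu at both times.

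In the list around beta-alanine, counts of CRMP, which encodes a dihydropyrimidinase of the pyrimidine route to beta-alanine, rose with a log2 fold change of 0.70. Its level went from 14.6 ± 1.70 to 23.1 ± 2.16 rpkm (n = 4 per time, SD). Counts over unioned exons do not separate transcripts of a gene, so this rise cannot be given to any 1 product of CRMP. The next enzyme of that route, pyd3, had 1.79 and 1.16 rpkm and a log2 fold change of -0.59 (edgeR adjusted p = 0.0864), and su(r), the enzyme before it, had at most 6 reads in a library. Gad1 had at most 4 reads.

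Among genes for other amines, Tdc2, a tyrosine decarboxylase, fell from 4.15 to 2.94 rpkm on average (log2 fold change -0.46) and Tdc1 had -0.30 (edgeR adjusted p = 0.227). Tbh, Trhn and Hdc (at most 3, 9 and 37 reads in a library) were not tested. Of the relatives of AANAT1, AANATL2 had 1.12 and 1.70 rpkm (edgeR adjusted p = 0.0545), AANATL7 was below 1 rpkm, and AANATL3, AANATL4, AANATL5 and AANATL6 had no read in any library. Of the 2 tested relatives, 0 were past the threshold by edgeR or DESeq2 and 1 had an unadjusted p under 0.05. Over all tested genes, 32.9% differed by edgeR.

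Of 6 transporter genes, Vmat, the vesicular monoamine transporter, fell from 1.60 ± 0.877 to 0.136 ± 0.0597 rpkm (n = 4 per time, SD; log2 fold change -3.53) and Balat, a beta-alanine transporter, from 1.39 to 0.802 rpkm (log2 fold change -0.77). The dopamine transporter DAT and the serotonin transporter SerT had log2 fold changes of -0.44 and -1.32 and were not past the threshold. Over all tested genes, 17.3% were lower at 28 hr APF. The most abundant of the list at 28 hr APF was ine, at 1.79 ± 0.423 rpkm (SD, n = 4), with a log2 fold change of 0.08.

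The list of oxidases and the yellow family held 14 tested genes, of which 6 rose and 3 fell (median log2 fold change 0.21). Over all tested genes, 15.6% rose and 17.3% fell. The yellow family is named for y, which is needed for black melanin and is named in the genotype of these pupae. The largest rises were those of yellow-e, from 1.33 ± 0.482 to 6.48 ± 0.384 rpkm, and yellow-e3, from 10.2 ± 2.65 to 45.7 ± 1.80 rpkm (n = 4 per time, SD), with log2 fold changes of 2.33 and 2.21. Transcripts of y rose from 8.56 ± 0.275 to 11.9 ± 1.23 rpkm (n = 4 per time, SD; log2 fold change 0.50), and those of yellow-b, PPO3 (a prophenoloxidase) and yellow-c rose with log2 fold changes of 0.73, 0.84 and 0.16. The most abundant of the list was yellow-c, at 116.8 ± 6.91 rpkm at 28 hr APF (SD, n = 4). Transcripts of Mco1 (a multicopper oxidase), yellow-h and yellow-e2 fell, with log2 fold changes of -1.63, -1.21 and -0.56. PPO2 had at most 3 reads in a library, and the laccase gene stw and PPO1 were not analysed here.

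Among 12 transcription factors tied to cuticle genes or pigmentation, 5 were higher and 2 lower, against 15.6% and 17.3% of all tested genes. Of these factors, grh, Abd-B, dsx and en are also epithelium markers above, so the same values enter both lists. Grainyhead (grh), which activates Ddc and ple in the epidermis, rose from 40.5 ± 1.70 to 46.3 ± 3.68 rpkm (n = 4 per time, SD; log2 fold change 0.23). Transcripts of ttk (the most abundant of the list, at 90.9 ± 5.91 rpkm at 28 hr APF), Abd-B, dsx and bab1 rose with log2 fold changes of 0.28, 0.18, 0.33 and 0.42. Transcripts of the ecdysone receptor gene EcR fell from 70.7 ± 1.76 to 53.1 ± 1.36 rpkm, and those of vri from 47.5 ± 2.29 to 17.6 ± 4.91 rpkm (n = 4 per time, SD), with log2 fold changes of -0.38 and -1.40.

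**Figure D4:**
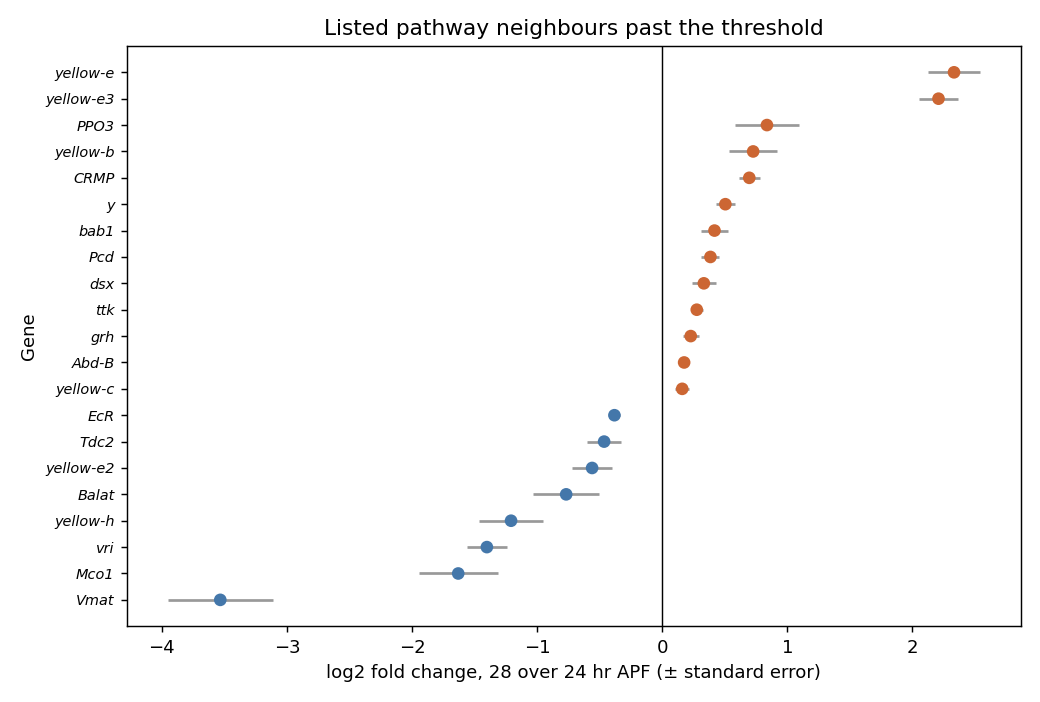
log2 fold change between 24 hr and 28 hr APF (x axis) of the 21 listed neighbours past the threshold, with the standard error of the fit over 4 libraries at each time point; orange is higher and blue lower at 28 hr APF. The largest rises were those of yellow-e and yellow-e3 and the largest fall that of Vmat.

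Some calls among these neighbours did not hold in all of the 8 fits that each omitted 1 library. Those of Balat and yellow-c were lost in 6 fits each (edgeR adjusted p of up to 0.110 and 0.122), that of PPO3 in 4 (up to 0.0829) and that of Tdc2 in 3 (up to 0.0768). The call of grh was lost without replicate 2 or 3 at 24 hr APF (up to 0.0605), that of dsx without replicate 3 of either time point (up to 0.0535), and that of yellow-e2 without replicate 1 at 28 hr APF (0.0524). The call of Balat was also lost with upper-quartile normalization (edgeR adjusted p = 0.0510), and that of yellow-c without a composition factor (0.0781) and without a filter on low counts (0.0631).

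Other cells that could hold transcripts of these enzymes were followed through marker genes, none of which was at 0 in every library. Each summed level below leans on the most abundant markers of its list. The cells that held their transcripts were not identified, so a sum is not a measure of the amount of a cell type. Of 7 tested hemocyte markers, 0 were past the threshold by edgeR, against 32.9% of all tested genes. Of these markers, 0 were past it by DESeq2 and 2 had an unadjusted p under 0.05. Their summed level was between 120.2 and 171.6 CPM at 24 hr APF and between 124.4 and 130.7 CPM at 28 hr APF, with crq the most abundant and He at no more than 3 reads in a library. The crystal cell markers lz and PPO2 had at most 3 reads in a library, lz having none at 24 hr APF and PPO2 none at 28 hr APF.

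Of 7 tested neuron markers, 6 were higher at 28 hr APF (elav, nSyb, Syt1, brp, Syx1A and nrv3), against 15.6% of all tested genes. Their log2 fold changes were between 0.25 (Syx1A) and 0.95 (brp). The most abundant, Syx1A, averaged 19.7 and then 22.9 rpkm, whereas Syt1 and brp averaged at most 0.366 rpkm. The list summed to between 147.2 and 159.3 CPM and then to between 163.4 and 209.3 CPM. Of 3 tested markers of dopamine or serotonin neurons, Vmat was lower, where 17.3% of all tested genes were. DAT and SerT were not past the threshold (edgeR adjusted p = 0.624 and 0.151). The list summed to between 15.5 and 24.8 CPM and then to between 2.63 and 6.53 CPM. Vmat, already named among the transporters, had up to 844 reads in a library, DAT up to 127 and SerT up to 158. Of 5 tested glial markers, a list added after the values were seen, 0 were past the threshold by edgeR, against 32.9% of all tested genes. Of these markers, 1 was past it by DESeq2 and 1 had an unadjusted p under 0.05. The glial list summed to between 473.1 and 541.0 CPM and then to between 511.4 and 556.9 CPM. Its most abundant gene, nrv2, averaged 122.7 and then 129.3 rpkm, and its least abundant, Eaat1, 0.105 and then 0.101 rpkm.

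Of 5 tested fat body markers, Lsp1gamma was lower, and the list summed to between 38.6 and 163.0 CPM and then to between 32.5 and 76.9 CPM. Of 7 tested muscle markers, 4 were higher and 2 lower, with sums between 646.3 and 856.7 CPM and between 743.1 and 814.7 CPM. Over all tested genes, 15.6% were higher and 17.3% lower. The most abundant muscle marker, Act57B, averaged 314.6 and then 236.3 rpkm, and the least abundant, Mhc, 0.252 and then 0.0719 rpkm. Of 4 tested tracheal markers, 2 were higher and 1 lower, with sums between 737.7 and 968.2 CPM and between 586.3 and 670.2 CPM. In this list trh averaged 0.131 and then 0.115 rpkm, whereas verm, serp and Gasp averaged between 28.8 and 228.9 rpkm. Whether the transcripts of verm, serp and Gasp came from trachea was not tested. The part of these cells in the levels of Pu, e and Ddc was not tested.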

How the data were processed

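Poly-A libraries were made from the terminalia of single male pupae. The authors aligned the reads to dm3 with TopHat2 2.0.13, counted them over unioned exons of FlyBase genes with bedtools, and deposited raw counts, without normalization; how strand, overlapping genes and reads that span introns were treated is not given in the sources used here. Whether handling differed between the collections is not stated either, so age and collection cannot be told apart.

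Symbols, exon lengths and coordinates came from an Ensembl annotation of BDGP6, joined by FlyBase identifier without converting coordinates; 414 identifiers had no length and took between 8.07% and 8.44% of a library's counts. As AANAT1 was not analysed here, its ratio to e was not computed, and promoter sequences were not analysed here.

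All other values were computed here. Levels in rpkm use the total count of a library. The time points were compared with edgeR 4.0.16 in R 4.3.3 (TMM, filterByExpr with a minimum count of 10, quasi-likelihood test, Benjamini-Hochberg adjustment over all tested genes, threshold 0.05), which was tested on simulated counts; the standard error is the absolute log2 fold change over the square root of F. Similarity used log2 CPM with a prior count of 2. Python 3.11.15, pandas 2.3.3 and scipy 1.17.1 were used for the rest. DESeq2 1.42.0, other normalizations and filters, a replicate block, a minimum fold change of 1.5, longest-transcript lengths, a pseudocount and the omission of each library were alternatives. Counts of libraries of the same time point differed by more than sampling noise in every pair (smallest chi-square over degrees of freedom 7.36), so none was treated as a duplicate.

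The members and lists were chosen with earlier results of these data known. All members were named; of the lists, every gene past the threshold and the most abundant gene; for likeness, up to the 3 nearest genes per member. Other genes were named after their values were seen.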

Additional observations from a re-analysis of the deposited data

Results flagged for a closer look

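In 6 of 66 sets of 4 libraries (a gene at a time point), the highest or lowest value lay far from the remaining 3. About 1 in 20 such sets, here 3.3, would do so by chance. Among the enzymes these were e at 28 hr APF, at 21.5 rpkm in replicate 3 against 15.0 to 15.6 rpkm in the others, and t at 24 hr APF, at 0.750 rpkm in replicate 3 against 0.175 to 0.255 rpkm. Among the neighbours, replicate 4 at 24 hr APF was highest for Vmat (2.90 rpkm, against 1.04 to 1.33 rpkm) and yellow-e2 (5.09 rpkm, against 3.37 to 3.66 rpkm) and lowest for ttk (73.6 rpkm, against 77.4 to 78.0 rpkm). Replicate 2 at 24 hr APF was highest for Tdc2, at 4.92 rpkm against 3.77 to 3.97 rpkm. The cause of these single values was not tested.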

How the results depend on the processing

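The calls of Ddc, e and Pu were made under each normalization, filter and tool tried and with the replicate block; a test against a fold change of 1.5 left e and Pu. Omitting each library in turn gave 3 to 4 enzyme genes, with t added without replicate 3 at 24 hr APF. These fits gave 17 to 20 neighbours of between 43 and 45 tested, and between 27.3% and 30.4% of all tested genes. Tested against a fold change of 1.5, 5 of 43 tested neighbours were past the threshold instead of 21, as the test asks for a larger change. These 5 were yellow-e, yellow-e3, Vmat, vri and Mco1. Of all tested genes, 4.73% passed the same test in either direction. The log2 fold change of amd was below 0 with the replicate block (-0.0159) and without replicate 2 or 4 at 24 hr APF or replicate 2 at 28 hr APF (-0.05, -0.04 and -0.25); its range over omitted libraries was -0.254 to 0.219 and the cause was not tested. Replicate numbers did not pair libraries (correlations of deviations -0.16, 0.16, -0.22 and 0.14). With the block, 3 enzyme genes and 18 neighbours differed, grh, PPO3 and yellow-c being lost, and 28.3% of all tested genes differed. With the longest transcript as length, Pu at 28 hr APF was at 47.1 rpkm, because its length changes. Ratios kept their direction when any library was omitted, from 0.815 to 1.16 (Ddc to ple), 2.12 to 2.51 (Pu to ple), 0.620 to 1.12 (Ddc to amd) and 1.46 to 2.13 (e to t) on the log2 scale. The spread between libraries exceeded counting error for every analysed enzyme gene at both time points. For t the coefficients of variation were 74.1% and 27.5% at 24 and 28 hr APF, where counting would give 22.1% and 15.9%. For b they were 39.1% and 32.4%, where counting would give 15.2% and 12.1%. For amd they were 25.9% and 41.3%, where counting would give 9.25% and 9.10%.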
